A study of Arabidopsis thaliana with 6 samples.

Results

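TAS3 is the Arabidopsis thaliana locus whose transcript is cut and diced into trans-acting small interfering RNAs (siRNAs), and miR390, made from the precursors MIR390a and MIR390b, is the microRNA that triggers the process. Small RNAs were sequenced from untreated leaves of 3 rdr1 mutant libraries and 3 wild-type (WT) libraries, all from plants kept in 16 h of daylight at a constant 22 °C; the rdr1 allele is not given in the sources used here. RDR1, the gene named in the mutant, encodes an RNA-dependent RNA polymerase, and the series asks which small RNAs differ in abundance without it. Whether each library was made from its own plants is not stated in the labels, and the p-values below therefore measure the spread between libraries, which may be technical. Of 18124 distinct sequences listed, 30 were selected, each by an exact full-length match to the reference genome (TAIR10.1). The 19 TAS3 sequences matched that locus on either strand, and the 11 MIR390 sequences matched the sense strand of MIR390a or MIR390b. No measured value was used to select them, although the choice of these loci was made with earlier results of the same libraries known.

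TAS3 transcripts carry a pair of miR390 target sites. miR390 is loaded into AGO7, an Argonaute protein that accepts almost no other microRNA; the complex cuts the transcript at the 3′ site and binds at the 5′ site without cutting it. SGS3 then stabilises the cut product, the polymerase RDR6 copies it into double-stranded RNA, and DCL4 with its partner DRB4 dices it from the cut end in steps of constant length, which sets the siRNAs in a register. A pair of these siRNAs, the tasiARFs, direct cleavage of the mRNAs of ARF2, ARF3 and ARF4, auxin response factors that act in leaf polarity and in the passage from juvenile to adult leaves. TAS1 and TAS2, the other large trans-acting loci, depend on miR173 in place of miR390.

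Values are normalised read counts, taken from their spacing to be reads of a sequence scaled to 8000000 reads of a library total. Those totals were 4668411 to 6601783 reads in rdr1 and 5499464 to 9955668 reads in WT, so that 1 read was worth 0.804 to 1.71. The libraries differed in fragment length within each genotype. The classes of 20 to 22 nt, the size of microRNAs and trans-acting siRNAs, held 47.4%, 49.6% and 46.1% of the listed value in rdr1 replicates 1 to 3, against 26.5%, 37.8% and 55.0% in WT replicates 1 to 3. WT replicate 1 was the lowest library for 14 of the 19 TAS3 and 10 of the 11 MIR390 sequences, and for 9659 of all 18124, so results that turn on it are also given without it. Chloroplast sequences, a sign of green tissue, held 14.7% to 18.8% of the listed value in rdr1 and 16.6% to 19.5% in WT, and neither of the 2 mature forms of the pollen microRNA miR845 was among the listed sequences. No listed sequence matched RDR1, so the mutation could not be checked here.

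The TAS3 locus lies on the forward strand at chr3:5861491-5862437. The pair of miR390 sites in it is shown because every register position below is counted from the 3′ site, and capitals mark bases in Watson-Crick pairing with miR390. Each site had 16 of 21 bases in such pairing. An Argonaute cuts across miR390 bases 10 and 11, and both were in Watson-Crick pairing at the 3′ site and neither at the 5′ site. There base 10, an A, faces an A, while base 11, a G, faces a U and can form a G:U wobble pair.
5′ miR390 site, chr3:5862099-5862119, forward strand: GGtGtTATCCtatCTGAGCTT
3′ miR390 site, chr3:5862343-5862363, forward strand: ttgtCTATCCCTCCTGAGCTa

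All 19 TAS3 sequences lay between the 5′ site and the cut within the 3′ site, from locus position 653 to 863. Position 863 (chr3:5862353) is the last base before the cut, and 23 nt lie between the end of the 5′ site and position 653. Each sequence matched the genome at 1 place. Of the 19, 11 were sense and 8 were antisense; 14 had 21 nt, 4 had 20 nt and 1 had 22 nt. Below, S marks a sense and A an antisense sequence, and the number is the distance in nt from its start to the cut. For an antisense sequence the start is that of the 21-nt sense partner it would have in a duplex with 2-nt 3′ overhangs, so a number divisible by 21 is in register. S139, which leads the locus, the sequences with a start in register and A98, the highest antisense sequence out of register, are printed, with the first base, which bears on the choice of Argonaute, in capitals.
S21, chr3:5862333-5862353, forward strand: Ttctcctaccttgtctatccc
S42, chr3:5862312-5862332, forward strand: Ctctaattcgttcgagtcatt
S139, chr3:5862215-5862235, forward strand: Ttgtaagaccccatctctttc
S210, chr3:5862144-5862164, forward strand: Tattgtgttttatctagatga
A42, chr3:5862311-5862330, reverse strand: Tgactcgaacgaattagagg
A63, chr3:5862289-5862309, reverse strand: Agagatagatatctattctat
A98, chr3:5862254-5862274, reverse strand: Gaatagaatctgtaaaacgag

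No difference in the level of TAS3 as a whole was detected between the genotypes. Its summed value was 2277, 2317 and 2341 in rdr1 replicates 1 to 3, against 1145, 2181 and 3004 in WT replicates 1 to 3. The 3 rdr1 libraries sat close together and inside the wide WT range, whose low end was WT replicate 1. The mean was 2312 ± 32.5 in rdr1 and 2110.0 ± 931 in WT (SD, n = 3 each). In the limma fit over 1173 annotated loci, the log2 fold change of rdr1 over WT was 0.24 (SE 0.47, 95% interval −0.77 to 1.25, Benjamini-Hochberg adjusted p = 0.731), where 0.171% of loci passed. Without WT replicate 1 it was −0.15, so its sign rests on that library. As a share of all listed 20- to 22-nt sequences, TAS3 made up 0.201%, 0.219% and 0.267% in rdr1, against 0.215%, 0.233% and 0.253% in WT, and these ranges overlapped. In whole leaves, fewer cells making a small RNA and less of it per cell cannot be told apart.

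None of the 19 TAS3 sequences passed the test between the genotypes, by limma on log2(value + 1), in which 0.216% of the 18043 sequences tested passed an adjusted p of 0.05. Their Benjamini-Hochberg adjusted p-values ran from 0.753 to 0.906. None had an unadjusted p under 0.05 either, against 442 of all sequences tested, and edgeR and DESeq2 on recovered reads also called 0. The fold change was above 0 for 15 sequences and below 0 for 4, with a median log2 fold change of 0.34 beside 0.47 over all sequences tested. That median of all sequences was 0.01 under median of ratios scaling, which left 1 of the 10 TAS3 sequences named by rule, A98, above 0. All 19 sequences were above 0 in all 6 libraries, on 5 to 844 reads.

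A pair of sense siRNAs led the locus. S139 had 557, 601 and 521 in rdr1 replicates 1 to 3, against 256, 526 and 678 in WT replicates 1 to 3. S21, the first siRNA released from the cut end and also written 5′D1(+), had 519, 479.8 and 532 in rdr1, against 219.7, 499 and 583 in WT. For both, rdr1 values lay within the WT range, and in every library these were the 2 highest TAS3 sequences. S139 held 24.2% of the TAS3 value in rdr1 and 23.0% in WT, and S21 22.1% in rdr1 and 20.5% in WT (means of 3 libraries each). Their log2 fold changes were 0.31 (SE 0.61) for S139 and 0.35 (SE 0.61) for S21, with limma adjusted p of 0.764 and 0.755.

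S42, the second siRNA from the cut, was the next, with 213, 149 and 254 in rdr1 and 172, 288 and 352 in WT. Its near copy S43, which starts 1 nt upstream, had 138, 89.1 and 103 in rdr1 and 52.4, 93.4 and 153 in WT. S172, which covers a tasiARF core described below, had 167, 206 and 160.0 in rdr1 and 77.1, 143 and 220.2 in WT. Among these only S42 had a lower mean in rdr1 (206 ± 53.1 against 271 ± 91.4 in WT, SD, n = 3 each), and its values overlapped between genotypes (log2 fold change −0.37, SE 0.62, limma adjusted p = 0.753).

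The antisense strand was the lesser one. The antisense sequences summed to 391, 452 and 401 in rdr1, against 180.4, 324 and 544 in WT, which was 17.2%, 19.5% and 17.1% of TAS3 in rdr1 and 15.8%, 14.9% and 18.1% in WT. The difference of the mean shares, 1.71 percentage points, was within the spread of the libraries (exact two-sided permutation p = 0.3; 0.7 after Benjamini-Hochberg adjustment over 5 tests). The 5 highest antisense sequences were A63, A98, A42, A204 and A96.

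A63, in register, had 82.8, 123 and 61.8 in rdr1, against 58.2, 43.6 and 119.7 in WT. A98 had 97.8, 68.5 and 95.7 in rdr1, against 24.7, 81.0 and 95.6 in WT. A42 had 53.9, 42.8 and 72.7 in rdr1, against 24.7, 53.4 and 89.2 in WT. All 3 overlapped between genotypes, and A42 with S42 was the single case of a listed sense and antisense sequence at 1 register position. A204 averaged 49.7 ± 10.4 in rdr1 and 40.8 ± 24.3 in WT, and A96 averaged 47.6 ± 11.6 in rdr1 and 41.1 ± 21.3 in WT (SD, n = 3 each).

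S210, the in-register sequence farthest from the cut, had 33.9, 58.3 and 42.4 in rdr1, against 50.9, 60.5 and 92.4 in WT, with overlapping ranges. The 6 other sequences (S211, S201, S183, S140, A152 and A85) averaged 17.9 to 73.5 in rdr1 and 14.2 to 89.8 in WT, and each overlapped between genotypes.

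The only TAS3 sequence whose genotypes did not overlap was A207, named after its values were seen. It had 30.1, 49.7 and 31.5 in rdr1, against 14.5, 21.4 and 23.3 in WT. Every rdr1 library was above every WT library, on 10 to 29 reads a library, but the log2 fold change of 0.87 (SE 0.84) did not pass (limma adjusted p = 0.753). Across the whole table, genotypes did not overlap for 5.29% of sequences (rdr1 higher for 2.98%, lower for 2.31%), so 1 of 19 is near the background.

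**Figure D1:**
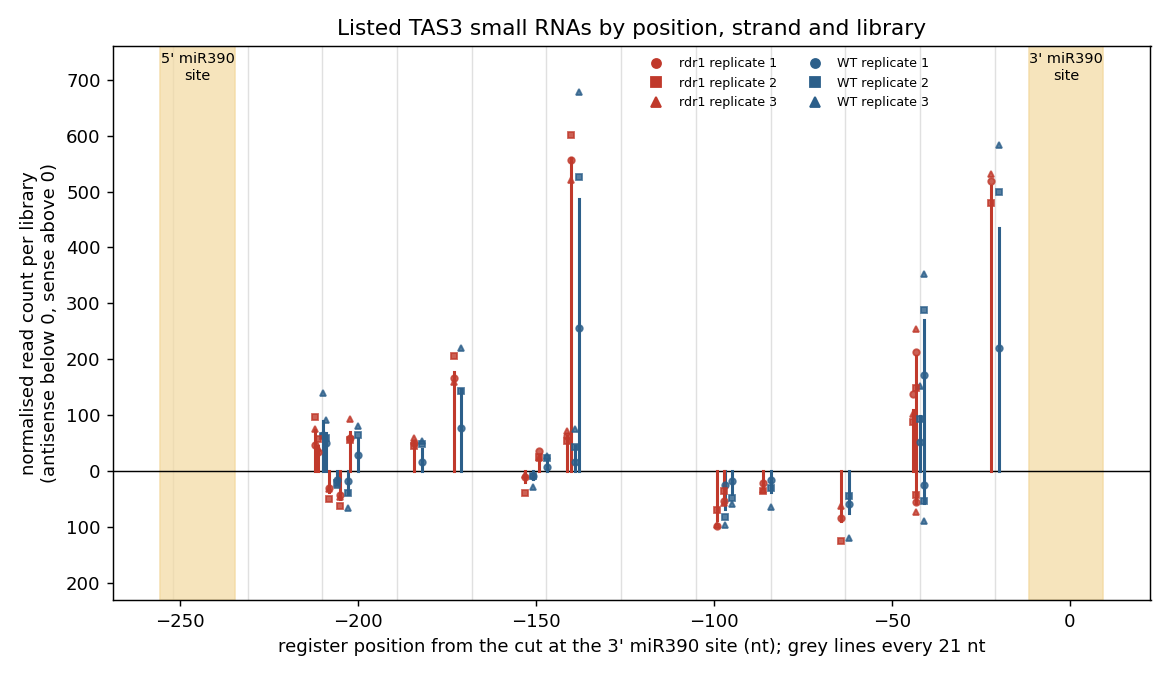
Normalised read count (vertical axis, sense above 0 and antisense below) of the 19 TAS3 sequences against distance in nt from the cut at the 3′ miR390 site. Lines are means of 3 libraries and symbols single libraries (circle, square and triangle for replicates 1, 2 and 3), with rdr1 (red) drawn left of WT (blue) at each position; S139 and S21 stand above all others in both genotypes.

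Most TAS3 value was in 21-nt sequences: 90.5%, 88.9% and 87.2% in rdr1, against 87.5%, 89.1% and 86.5% in WT (difference of means 1.12 percentage points, exact two-sided permutation p = 0.5, 0.7 adjusted over 5 tests). By first base, T (U in the RNA) led with 72.5%, 76.9% and 73.6% of the TAS3 value in rdr1 and 70.4%, 73.8% and 72.7% in WT. C followed with 18.2%, 12.6% and 18.4% in rdr1 and 21.1%, 19.5% and 19.3% in WT. For T the ranges overlapped, while for C every rdr1 library was below every WT library. S42, S43 and S140 are the 3 sequences that begin with C, and the difference in C was not tested. Of these only S42 had a lower mean share in rdr1, 8.89% against 13.3% in WT. S43 held 4.77% in rdr1 and 4.65% in WT, and S140 2.76% in rdr1 and 2.01% in WT. S42 also counts in the in-register share below.

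In exact register with the 3′ cut were 4 sequences of 21 nt: S21, S42, S210 and A63. Together they summed to 849, 811 and 891 in rdr1, against 500.4, 892 and 1147 in WT. As a share of TAS3 they held 37.3%, 35.0% and 38.0% in rdr1, against 43.7%, 40.9% and 38.2% in WT. Every rdr1 library was below every WT library, narrowly so for rdr1 replicate 3 and WT replicate 3. The means were 36.8 ± 1.60% in rdr1 and 40.9 ± 2.75% in WT (SD, n = 3 each), a difference of −4.15 percentage points. The exact two-sided permutation p was 0.1, the smallest that 3 against 3 libraries can give, and 0.5 after Benjamini-Hochberg adjustment over 5 tests. Counting starts within 1 nt of the register, the genotypes overlapped (exact p = 0.2). Leaving out 1 library in turn gave −5.52 to −2.77, the smallest without WT replicate 1. WT replicate 1, the library with the fewest 20- to 22-nt sequences, had the highest in-register share; whether this bears on the difference was not tested.

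The members of the register differed among themselves. As a share of TAS3, S42 held 9.37, 6.43 and 10.9% in rdr1, against 15.0, 13.2 and 11.7% in WT, and S210, written 5′D10(+), held 1.49, 2.51 and 1.81% in rdr1, against 4.45, 2.77 and 3.08% in WT. Both were lower in every rdr1 library than in every WT library. S21 held 22.8, 20.7 and 22.7% in rdr1 and 19.2, 22.9 and 19.4% in WT, and A63 held 3.64, 5.33 and 2.64% in rdr1 and 5.08, 1.999 and 3.99% in WT, with overlapping ranges. Of the 19 TAS3 sequences, 3 had shares that did not overlap between genotypes (S42 and S210 lower, A207 higher in rdr1), or 15.8%, beside 9 of 118 sequences, or 7.63%, for shares within TAS1 and TAS2 computed in the same way. These shares add up within a library, so a higher share of 1 member lowers those of the others.

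S139, at the top of the locus, was out of register with the 3′ cut, at an offset of 13 nt. The position opposite miR390 bases 10 and 11 at the 5′ site is 244 nt from the cut at the 3′ site, a distance that leaves a remainder of 13 when divided by 21, so S139 was exactly in register with the 5′ site. Of the 21-nt sequences, 4 (S139, S140, A98 and A96) were within 1 nt of the register of the 5′ site. They held 33.9%, 32.8% and 31.8% of TAS3 in rdr1, against 27.6%, 32.0% and 30.2% in WT. Another 5 (S21, S42, S43, S210 and A63) were within 1 nt of the register of the 3′ cut, and held 43.4%, 38.8% and 42.4% in rdr1, against 48.3%, 45.2% and 43.3% in WT. The other 5 sequences of 21 nt held 13.2%, 17.3% and 12.9% in rdr1 and 11.7%, 11.995% and 13.03% in WT. The register of the 5′ site was looked at after S139 was seen to lead the locus, and is given as a description with no test.

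**Figure D2:**
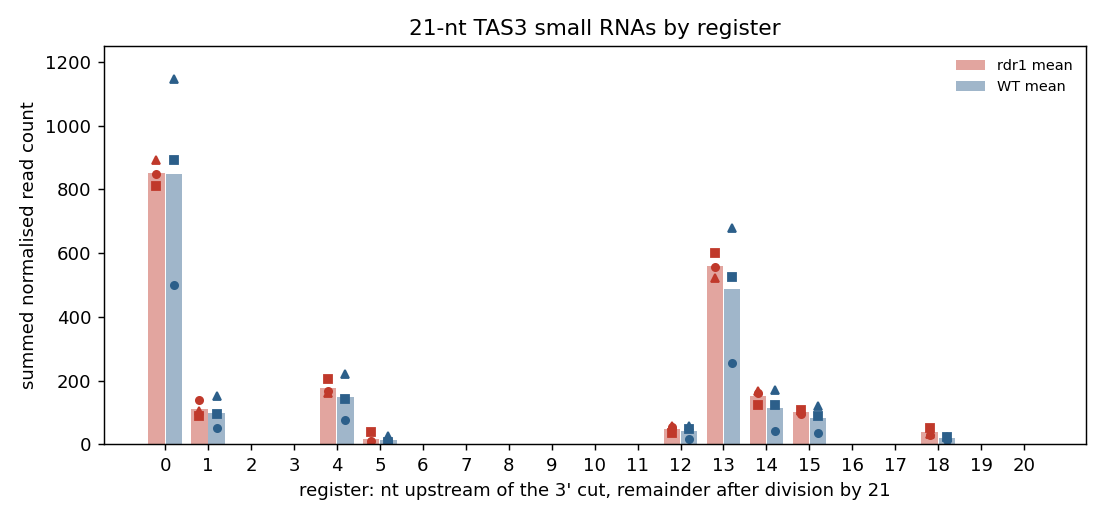
Summed normalised read count of 21-nt TAS3 sequences (vertical axis) by register, the remainder in nt after division by 21 of the distance to the 3′ cut (horizontal axis); bars are means of 3 libraries, rdr1 (red) left of WT (blue), and symbols are single libraries (circle, square and triangle for replicates 1, 2 and 3). Offset 0 holds 850.2 in rdr1 and 847 in WT, and offset 13, which holds S139 alone, 559.8 in rdr1 and 487 in WT.

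The tasiARFs correspond to register positions 5′D7(+) and 5′D8(+), and no listed 21-nt sense sequence started exactly there, so their abundance was not analysed here. The locus holds a pair of near copies of the tasiARF sequence that share a stretch of 16 nt, and 2 of all 18124 listed sequences contained that stretch. They are printed with the shared stretch in capitals, since it lies in the part that pairs with the ARF mRNAs. Counted in steps of 21 nt from the cut, S148 starts 1 nt upstream of the position of 5′D7(+), and S172 starts 4 nt upstream of that of 5′D8(+). Whether S148 is a shorter form of the tasiARF or a shifted neighbour cannot be told from counted positions.
S148, chr3:5862206-5862225, forward strand: TTCTTGACCTTGTAAGaccc
S172, chr3:5862182-5862202, forward strand: tttTTCTTGACCTTGTAAGgc

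S148 had 36.4, 25.7 and 24.2 in rdr1, against 7.27, 24.9 and 28.1 in WT. With S172 it summed to 203, 231 and 184 in rdr1, against 84.4, 168 and 248 in WT. The means of the sum were 206 ± 23.7 in rdr1 and 167 ± 82.0 in WT (SD, n = 3 each), and the rdr1 values lay inside the WT range (exact two-sided permutation p = 0.6). The mean difference of 39.3 became −2.004 without WT replicate 1 and −7.38 under median of ratios scaling.

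S148 was compared with its target genes to show which bases pair. With at most 2 bases outside Watson-Crick pairing, 5 sites were found, 1 in ARF2, 2 in ARF3 and 2 in ARF4, all within coding exons. An example of each kind is printed, with bases in Watson-Crick pairing in capitals. ARF2 and the first ARF3 site had 19 of 20 bases so paired, and the first ARF4 site 18 of 20. Of the sites not printed, the second in ARF3 had 18 of 20 and the second in ARF4 had 19 of 20. A g within the site was outside Watson-Crick pairing in all 3 printed sites, but it faces a U of S148 and can form a G:U wobble pair.
ARF2 site, chr5:24913262-24913281, forward strand: GGGTCTTgCAAGGTCAAGAA
ARF3 site, chr2:14325942-14325961, reverse strand: GGGTCTTgCAAGGTCAAGAA
ARF4 site, chr5:24309718-24309737, reverse strand: aGGTCTTgCAAGGTCAAGAA

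miR390 products came from MIR390a (chr2:16061954-16062060, forward strand) and MIR390b (chr5:23636947-23637066, forward strand). The 11 sequences were 6 from the 5′ arm, which carries miR390 itself, 4 from the 3′ arm, which carries the strand usually discarded (the star strand), and 1 from the loop of MIR390a. All 6 of the 5′ arm matched both precursors, so they cannot be assigned to either. The annotated 21-nt miR390 was not analysed here, and the 5′ arm is described from its shorter and shifted forms. The leading 5′ form, which starts where annotated miR390 does, and both annotated star strands are printed with bases 2 to 8, the seed, in capitals.
miR390 5′ arm, 20 nt, chr2:16061971-16061990, forward strand: aAGCTCAGgagggatagcgc
MIR390a star, 21 nt, chr2:16062023-16062043, forward strand: cGCTATCCatcctgagtttca
MIR390b star, 20 nt, chr5:23637034-23637053, forward strand: cGCTATCCatcctgagttcc

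The summed MIR390 value was 2573, 1899 and 2024 in rdr1 replicates 1 to 3, against 1002, 2196 and 2302 in WT replicates 1 to 3. WT replicate 1 was less than any other library, and the other 5 overlapped. The means were 2165 ± 359 in rdr1 and 1833 ± 722 in WT (SD, n = 3 each). In the limma fit over loci, the log2 fold change was 0.32 (SE 0.47, 95% interval −0.69 to 1.33, Benjamini-Hochberg adjusted p = 0.683), and −0.067 without WT replicate 1. None of the 11 sequences passed the test beside 0.216% of all sequences, none had an unadjusted p under 0.05, and none had groups that did not overlap beside 5.29%. The fold change was above 0 for 10 and below 0 for 1, with a median log2 fold change of 0.36 beside 0.47 over all sequences tested.

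The 2 leading forms of the 5′ arm had 20 nt. The form with the annotated start had 482, 348 and 395 in rdr1, against 177, 422 and 488 in WT. The form that starts 1 nt later had 502, 317 and 362 in rdr1, against 185, 473 and 448 in WT. The order of the 2 forms changed from library to library, and both overlapped between genotypes.

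The 4 forms of 17 to 19 nt accounted for 24.0%, 17.4% and 16.999% of the 5′ arm in rdr1, against 9.12%, 18.8% and 16.2% in WT. That length held 35.2%, 15.2% and 13.6% of all listed value in rdr1 and 5.72%, 18.2% and 16.8% in WT, so the same 2 libraries, rdr1 replicate 1 and WT replicate 1, were highest and lowest on both counts. The 17-nt form had 59.0, 17.1 and 7.27 in rdr1, against 1.45, 14.2 and 9.64 in WT, and the 18-nt form 74.0, 27.4 and 21.8 in rdr1, against 1.45, 36.5 and 37.0 in WT. Their log2 fold changes, 1.499 (SE 1.04) and 1.27 (SE 0.87), had limma adjusted p of 0.753 each, and became −0.056 and −0.57 without both replicate 1 libraries.

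Of the remaining 5′ forms, that of 19 nt with the annotated start averaged 105 ± 30.7 in rdr1 and 85.0 ± 53.2 in WT, and that of 19 nt starting 1 nt later 27.7 ± 10.2 in rdr1 and 23.1 ± 14.4 in WT (SD, n = 3 each).

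The MIR390a star strand was the most abundant of the 11, with 793, 709 and 679.8 in rdr1, against 383, 587 and 763 in WT. Its 20-nt form, 1 nt shorter at the 3′ end, had 302, 216 and 273 in rdr1, against 124, 279 and 240.3 in WT. The MIR390b star strand had 105, 65.1 and 67.9 in rdr1, against 30.5, 107 and 82.8 in WT. A 3′ arm form of 21 nt that starts 3 nt upstream of the annotated stars, and matches both precursors, averaged 88.1 ± 12.9 in rdr1 and 80.1 ± 34.3 in WT (SD, n = 3 each). In every library the MIR390a star exceeded the MIR390b star, and each of these 4 forms overlapped between genotypes. The 3′ arm amounted to 0.989, 1.36 and 1.21 times the 5′ arm in rdr1, against 1.45, 0.977 and 1.06 times in WT, counting listed forms only.

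The loop sequence of 31 nt had the lowest mean of the 11 over all 6 libraries, and was the only one with a lower mean in rdr1. In WT alone the 17-nt 5′ form was lower still, with a mean of 8.45 beside 15.1 for the loop. The loop sequence had 0, 0 and 8.48 in rdr1, against 26.2, 16.0 and 3.21 in WT, or 7 reads over the rdr1 libraries and 40 over the WT libraries. The rdr1 replicate 3 value lay above that of WT replicate 3, and the log2 fold change of −2.56 (SE 1.36) had a limma adjusted p of 0.753. The whole class of 28 to 34 nt held 4.87%, 15.7% and 17.7% of the listed value in rdr1 and 35.3%, 26.2% and 9.94% in WT, and WT replicate 1 was highest on both; the part of fragment length in this difference was not tested.

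**Figure D3:**
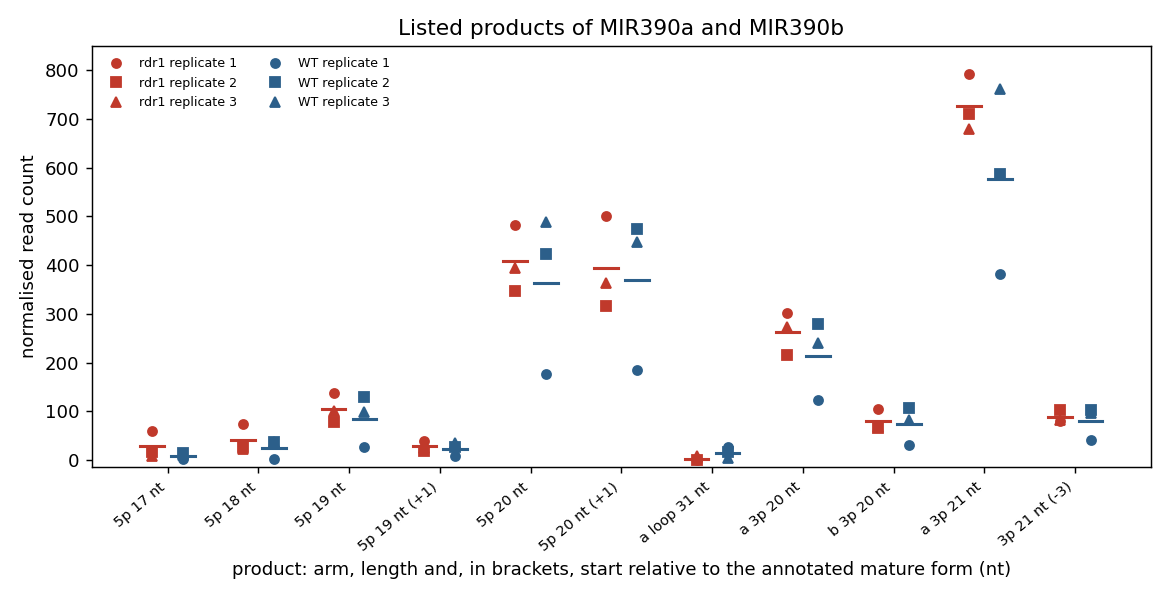
Normalised read count (vertical axis) of the 11 sequences from MIR390a and MIR390b, by arm and length (horizontal axis), with the shift of the start from the annotated form in brackets. Horizontal bars are means of 3 libraries and symbols single libraries (circle, square and triangle for replicates 1, 2 and 3), rdr1 (red) left of WT (blue); WT replicate 1 is the lowest library for 10 of the 11.

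Ratios within a library are free of its scaling. TAS3 amounted to 0.885, 1.22 and 1.16 times the sum of the listed MIR390 forms in rdr1, against 1.14, 0.994 and 1.30 times in WT. These ranges overlapped, and the difference of the mean log2 ratios was −0.08 (exact two-sided permutation p = 0.7, 0.7 adjusted over 5 tests). WT replicate 1, the lowest library in both sums, was in the middle of the WT ratios. The MIR390 sum does not hold annotated miR390 itself, so the level of TAS3 siRNAs relative to their trigger was not tested. The star arm made up 49.7%, 57.6% and 54.5% of that sum in rdr1, against 57.6%, 49.0% and 51.3% in WT.

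TAS1 and TAS2, with 118 listed sequences, summed to 31612, 42445 and 33276 in rdr1, against 19564, 28896 and 43177 in WT. That was 13.9, 18.3 and 14.2 times TAS3 in rdr1, against 17.1, 13.2 and 14.4 times in WT, with overlapping ranges. The log2 ratio of TAS3 to TAS1 and TAS2 differed by −0.05 (exact two-sided permutation p = 0.7, 0.7 adjusted over 5 tests). By locus, the log2 fold changes were 0.10 for TAS1a, 0.33 for TAS1b, 0.34 for TAS1c and 0.22 for TAS2, beside 0.24 for TAS3, and none passed the limma test.

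**Figure D4:**
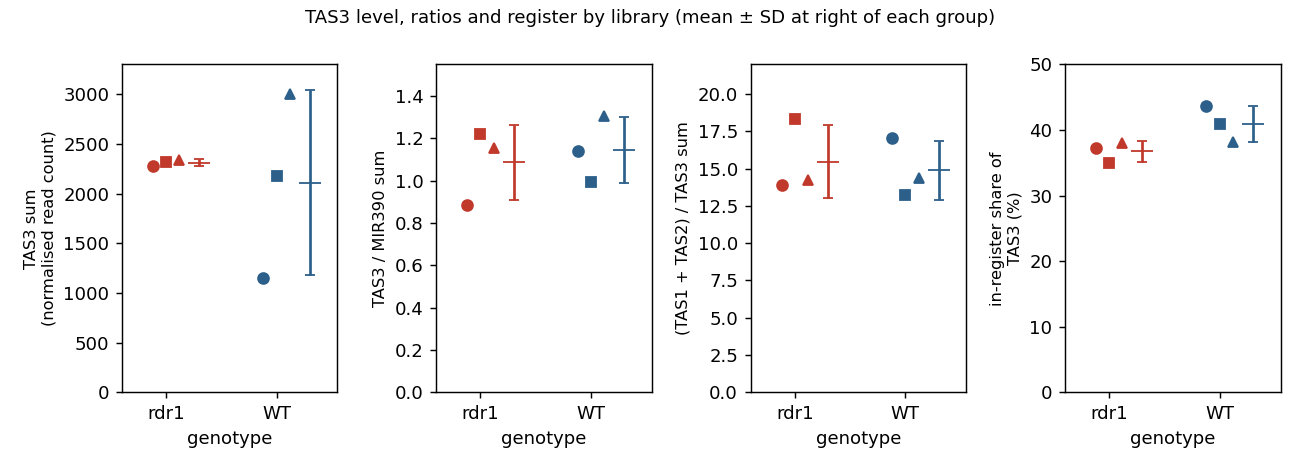
From left to right, the TAS3 sum (normalised read count), its ratio to the sum of the listed MIR390 forms, the ratio of the TAS1 and TAS2 sum to it, and the in-register share of TAS3 (%), each by genotype with rdr1 (red) left of WT (blue). Symbols are single libraries (circle, square and triangle for replicates 1, 2 and 3) and bars mean ± SD; the genotypes do not overlap in the last panel alone.

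For the rest of the pathway, none of 11 genes had a listed sequence: the paralogues TAS3b and TAS3c, the targets ARF2, ARF3 and ARF4, and AGO7, SGS3, RDR6, DCL4, DRB4 and SDE5, the last a factor needed for trans-acting siRNAs. Every listed sequence reached at least 20.07 in a library, but the rule by which sequences were listed is not given. The lack of a listed sequence therefore sets no bound on its level and does not show that such small RNAs are absent. TAS4 had 1 listed sequence, with 53.9, 17.1 and 41.2 in rdr1, against 7.27, 53.4 and 10.4 in WT, and its trigger miR828 had none. MIR173, the trigger precursor of TAS1 and TAS2, had 1 listed sequence, with 268, 284 and 523 in rdr1, against 223, 495 and 362 in WT. Neither TAS4 (log2 fold change 1.01, limma adjusted p = 0.636) nor MIR173 (0.00, limma adjusted p = 0.999) passed the test over loci.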

How the data were processed

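Per the file headers, the deposited table held 1 column per library with a normalised signal for each sequence, from leaf RNA extracted with TRIzol, prepared with HD adapters and read as single ends on a HiSeq instrument, per the labels' protocols. The submitters' processing notes name TAIR10 as build. How reads were trimmed, aligned, filtered and scaled is not given in the sources used here. Every value was a whole multiple, within 0.01 of a read for 100% of values, of 8000000 divided by a whole number, taken as the library total. What that total counts is not stated.

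Sequences were matched without mismatch to TAIR10.1, and all 18124 matched. Values of sequences and loci with a mean of at least 5 were fitted with limma (trend, two-sided) on log2(value + 1) with Benjamini-Hochberg adjustment at 0.05. Fold changes on that scale understate changes of low values. For loci, a sequence was divided equally between its matches, and MIR390a and MIR390b were 1 feature. Shares and ratios were compared by exact permutation of the 6 libraries. The members and all lists were chosen with earlier results of these data known.

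Sequences named were the annotated strands of MIR390, the 5 highest TAS3 sequences per strand and the 3 members with the smallest p; others are said to be chosen later. Alternatives were other pseudocounts (0.5 and 20), no filter or a minimum mean of 20, median of ratios scaling, edgeR and DESeq2 on recovered reads, the replicate number as a block, other register and length rules, only single matches, and each library left out. Chosen after the data were seen were the removal of both replicate 1 libraries, the sum over the tasiARF core, the register of the 5′ site and shares within the locus. All pairs of libraries within a genotype differed by more than sampling noise (chi-square per degree of freedom 7.57 to 45.7). TAS3 rested on 787 to 3738 reads a library and MIR390 on 689 to 2865. The fits ran in R 4.3.3 with DESeq2 1.42.0, limma 3.58.1 and edgeR 4.0.16, and the rest in Python 3.11.15 with scipy 1.17.1, pandas 2.3.3, numpy 2.4.6 and matplotlib 3.10.9.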

Additional observations from a re-analysis of the deposited data

How the results depend on the processing

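No member was called in any of the alternatives run, with edgeR, DESeq2, other pseudocounts and filters, the replicate block and each library left out. The direction of many differences did change, none of them past a threshold, and the cause was not tested. Leaving out 1 library at a time gave log2 fold changes of −0.15 to 0.55 for the TAS3 locus and −0.067 to 0.53 for MIR390, with the low ends without WT replicate 1. Without both replicate 1 libraries they were −0.14 and −0.20. Median of ratios scaling with factors computed over loci gave 0.27 and 0.35. The factors computed over sequences, used for single sequences below, were not applied to these locus fits.

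The difference in log2 ratio of TAS3 to MIR390 ran from −0.18 to 0.060 with 1 library left out, above 0 without rdr1 replicate 1 (0.060) or WT replicate 3 (0.016), and was 0.062 without both replicate 1 libraries. That of TAS3 to TAS1 and TAS2 ran from −0.15 to 0.077, above 0 without rdr1 replicate 2 (0.077) or WT replicate 2 (0.030), and was −0.23 without both replicate 1 libraries. The in-register share kept its direction throughout: −4.03 percentage points within 1 nt of the register, where the genotypes overlapped (exact p = 0.2), −5.24 over 21-nt sequences only, −5.52 to −2.77 with 1 library left out and −3.03 without both replicate 1 libraries. The difference in antisense share ran from 0.922 to 2.65 and that in 21-nt share from 0.314 to 1.94 percentage points with 1 library left out. The tasiARF core sum ran from −2.004 to 79.96 and was −0.486 without both replicate 1 libraries and −7.38 with median of ratios scaling. The sum planned over 5′D7(+) and 5′D8(+), also within 1 nt, gave no value because no 21-nt sequence was listed there.

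Among the 15 sequences named by rule, log2 fold changes went below 0 for 10 with median of ratios scaling: −0.16 for S139, −0.12 for S21, −0.078 for S172, −0.21 for S43, −0.12 for A63, −0.29 for A42, −0.0060 for A204, −0.11 for A96, −0.083 for the MIR390a star and −0.20 for the MIR390b star. DESeq2 gave −0.16, −0.0997, −0.097, −0.29, −0.25, −0.29, −0.057, −0.11, −0.0993 and −0.23 for the same sequences in that order. edgeR gave −0.039 for S139, −0.17 for S43, −0.11 for A63, −0.19 for A42, −0.0052 for A96 and −0.12 for the MIR390b star. Without both replicate 1 libraries the values were −0.093 for S139, −0.095 for S21, −0.32 for S43, −0.12 for A98, −0.30 for A42, −0.26 for A96, −0.49 for the MIR390b star, −0.57 for the 18-nt and −0.056 for the 17-nt 5′ form.

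With 1 library left out, the fold changes that crossed 0 ran from −0.096 to 0.61 for S139, −0.082 to 0.62 for S21, −0.010 to 0.74 for S172, −0.14 to 0.62 for S43, −0.028 to 0.93 for A98, −0.32 to 0.59 for A42, −0.050 to 0.88 for A204, −0.17 to 0.67 for A96, −0.28 to 0.61 for the MIR390b star and −0.048 to 1.93 for the 18-nt form. Each low end was without WT replicate 1, and A42 was also below 0 without rdr1 replicate 3 (−0.032).

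Libraries with the same replicate number did not deviate together from the means of their genotypes (r of −0.72, −0.30 and −0.53 over sequences). These values do not settle whether such libraries were grown or prepared together. With the replicate number as a block, 7 sequences of all were called against 39, none a member, the TAS3 locus kept 0.24 (limma adjusted p = 0.845) and the in-register share had an exact p of 0.25. With 3 libraries a genotype, the limma interval for TAS3 spans −0.77 to 1.25, so changes within it were not excluded.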
